A study of Homo sapiens with 13 samples.

Results

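The BCL2 family decides whether a stressed cell opens its mitochondria and dies by apoptosis. Its antiapoptotic members (BCL2, BCL-XL, MCL1) hold back the pore formers BAX and BAK, and its BH3-only members (BIM, BMF, PUMA, NOXA, BID) are the stress sensors that neutralize the former or switch on the latter. Lymphoid cells depend heavily on this balance, and BIM and BMF are among the sensors used by lymphocytes that lose survival signals or are exposed to glucocorticoids.

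Expression of 10 members was described: BCL2, BCL2L1 (BCL-XL), MCL1, BCL2L11 (BIM), BMF, BBC3 (PUMA), PMAIP1 (NOXA), BAX, BAK1 and BID. A gene was analysed where a probe set is annotated to that gene alone, and where several were, the one with the highest mean over the arrays was taken. This left 9 of the 10 members, with 30 probe sets, among 18568 genes, because the BBC3 probe set carries more than 1 gene symbol and was not analysed here. The list was drawn up with earlier results of these arrays known, and BMF was selected on measured values, its rise with methotrexate (MTX) resistance at 48 hours, so its levels against that measure are a description and carry no test.

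Expression was measured on HG-U133 Plus 2.0 arrays in 13 acute lymphoblastic leukemia (ALL) cell lines, all untreated and, per the labels, cultured for 30 hours, with 1 array per line. The 6 B-cell precursor (BCP-ALL) lines were Nalm16, Nalm30, Nalm6, 697, RS4;11 and REH. The 7 T-ALL lines were HPB-ALL, ALL-SIL, Molt-4, CCRF-CEM, TALL-1, P12-ICHIKAWA and Jurkat. The lines differ in their driving lesions as well as in lineage, each group has 1 culture per line, and the genotypes are not given in the labels. MTX resistance was the IC50, the dose at which survival falls midway from that of untreated cells to none. It was determined for each line after 48 and after 96 hours of treatment, and it enters here only as ranks and as a covariate.

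By the means of marker lists, the lineage labels held for all 13 lines. The mean of 7 B-lineage markers was 9.79 to 10.47 on the log2 scale in BCP-ALL and 4.47 to 5.36 in T-ALL, and that of 8 T-lineage markers was 4.74 to 5.12 in BCP-ALL and 8.69 to 10.11 in T-ALL. Of the single markers, VPREB1 and CD2 overlapped between lineages. VPREB1 was 4.15 in REH but 6.77 in CCRF-CEM, and CD2 was only 4.57 in CCRF-CEM and 4.51 in Molt-4. The lowest possible value is 4 and array medians ran from 5.05 to 5.37, so values under 5 are called near the floor. The arrays of P12-ICHIKAWA and TALL-1 correlated at 0.993 over all probe sets, well above every other pair. Those of Nalm16 and Nalm30 correlated at 0.959, just above the other 76 pairs, which lay between 0.770 and 0.956. The lines of each named pair may not be independent samples, with less ground for Nalm16 and Nalm30. Over the 9 members, P12-ICHIKAWA and TALL-1 differed by a median of 0.097 and at most 0.21 log2 units (BCL2L11). Nalm16 and Nalm30 differed by a median of 0.38 and at most 0.77 (BAK1). Over all genes tested the medians were 0.11 and 0.37. With 1 array per line, every p-value measures the spread between lines.

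**Figure D1:**
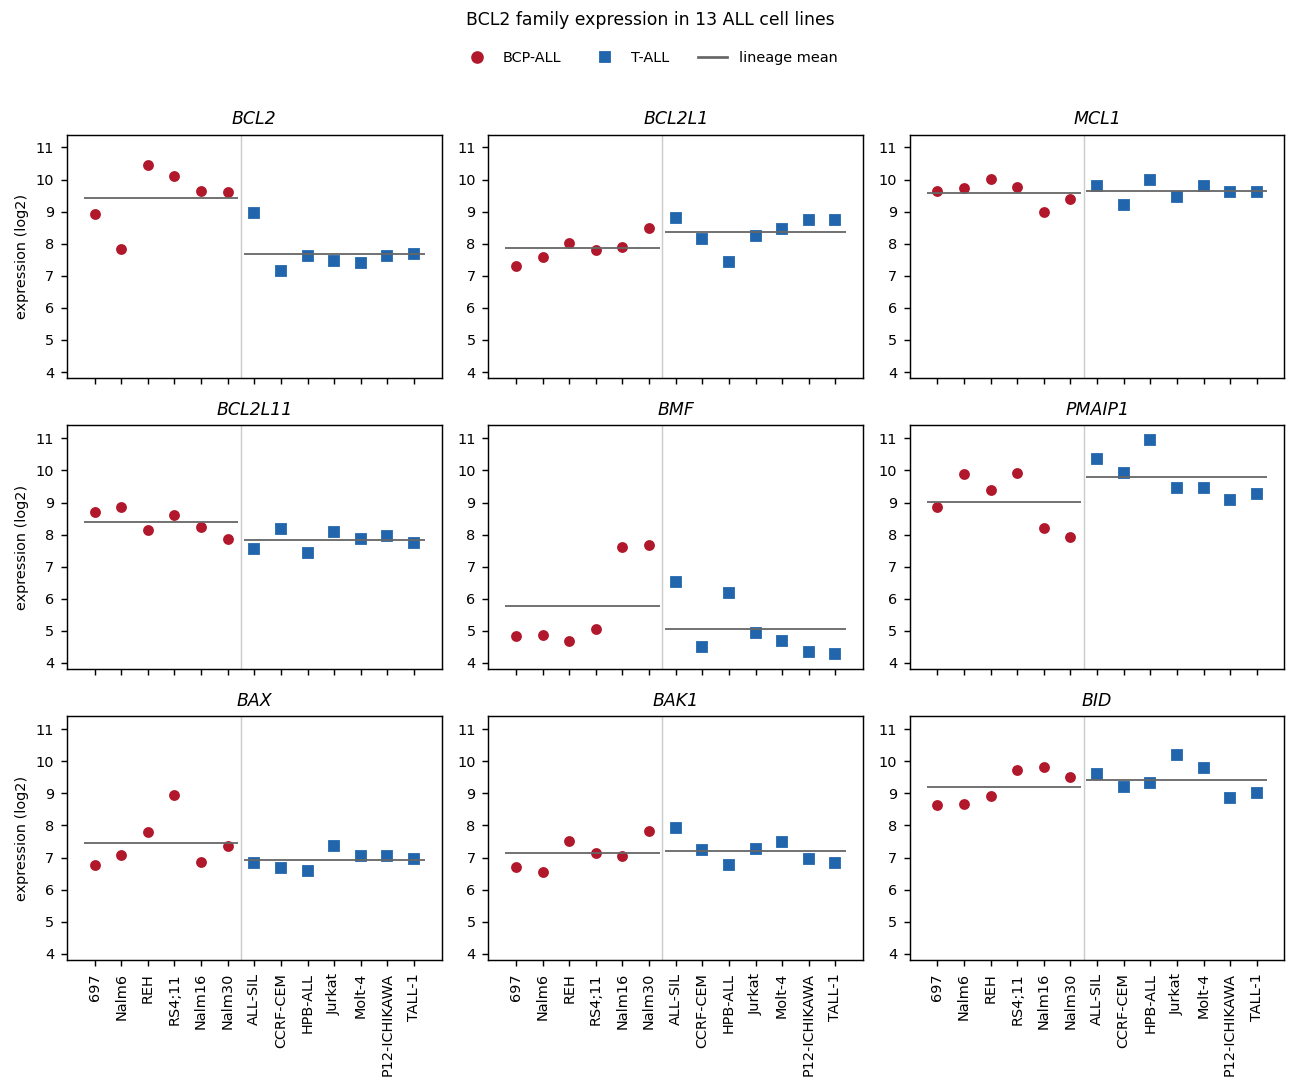
Each panel plots the log2 expression of 1 family member in the 13 lines (circles BCP-ALL, squares T-ALL, grey bars the lineage means). BMF lies at 6.19 or above in Nalm16, Nalm30, ALL-SIL and HPB-ALL and at 5.06 or below in the other 9 lines, and heights are not comparable between panels because each probe set has its own response.

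The members varied between lines to different degrees. The SD over the 13 lines was 1.19 log2 units for BMF and 1.16 for BCL2, larger than in 87.4% and 86.5% of the 12560 genes tested. PMAIP1 followed with 0.82 and BAX with 0.62. On the probe sets used, MCL1, which encodes a short-lived antiapoptotic protein, had the smallest SD of the members at 0.30. BAK1, BCL2L11, BID and BCL2L1 lay between 0.42 and 0.50, beside a median of 0.52 over all genes tested. This order depends on the probe set. The SD of BCL2L11 was 1.03 on 225606_at and 1.04 on 1558143_a_at, but 0.28 on 208536_s_at. That of MCL1 was 0.79 on 200796_s_at, but 0.14 on 227175_at. HPB-ALL was the lowest line for 2 members (BCL2L11 and BAX) and the highest for 1 (PMAIP1). It was not alone in this: 697 was the lowest for 2 (BCL2L1 and BID), and REH and ALL-SIL were each the highest for 2.

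BMF, whose protein is held on the cytoskeleton until stress frees it to bind antiapoptotic proteins, was split into 2 levels. It was 7.67 in Nalm30, 7.61 in Nalm16, 6.51 in ALL-SIL and 6.19 in HPB-ALL. In the other 9 lines it ranged from 4.28 (TALL-1) to 5.06 (RS4;11), below the median of the array in each and near the floor in 8. A gap of 1.14 log2 units without any line separated the 2 levels, and each level held lines of both lineages. BMF has a single probe set on this array (226530_at), so no other probe set could be set beside it, and it was kept among the genes tested because of its 4 high lines.

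The 4 lines with high BMF were the 4 with the highest IC50 at 48 hours, the relation for which the gene was chosen. BMF changed by 0.34 log2 units per 10 nM of IC50 over the 13 lines, by 0.36 over the 6 BCP-ALL lines and by 0.28 over the 7 T-ALL lines. Without Nalm16 and Nalm30 the slope over the other 11 lines was 0.26. Within the 9 lines with the lowest IC50 it was 0.078, where nearly all BMF values are near the floor. In each of the other 8 members the values of the 4 lines with the highest IC50 overlapped those of the other 9. The share of all genes without such an overlap was not counted, so the overlap in these 8 cannot be set against a typical gene. BMF was chosen for this relation, so its contrast with the other members is only a description.

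**Figure D2:**
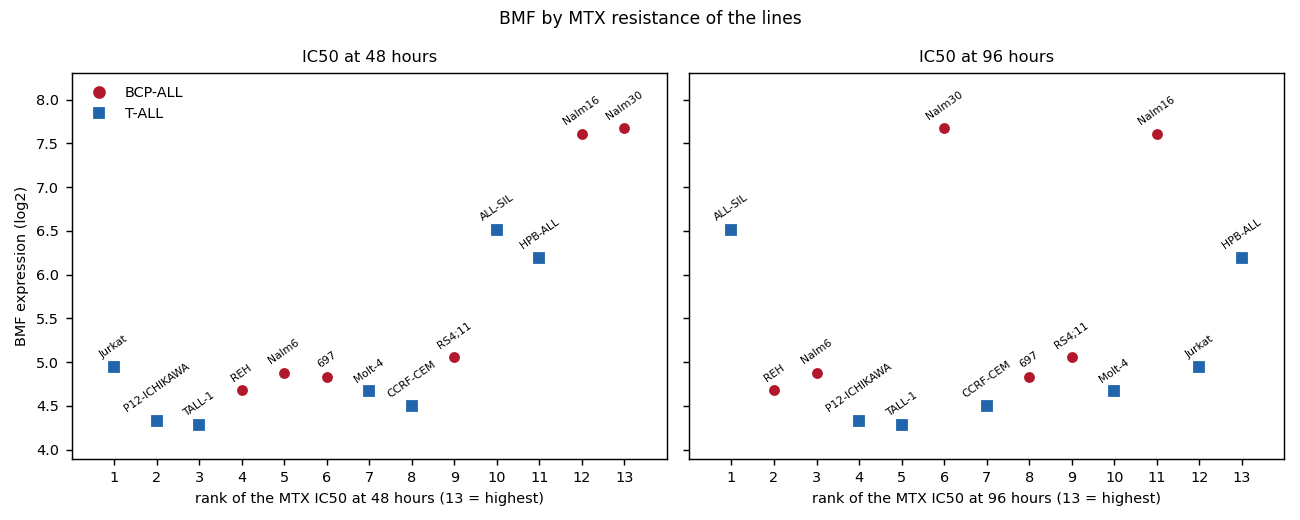
BMF log2 expression is plotted against the rank of the MTX IC50 at 48 hours (left) and 96 hours (right), with circles for BCP-ALL and squares for T-ALL. At 48 hours the 4 lines with high BMF take ranks 10 to 13, and at 96 hours they take ranks 1 (ALL-SIL), 6 (Nalm30), 11 (Nalm16) and 13 (HPB-ALL).

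At 96 hours the same 4 lines were spread over the range of resistance. ALL-SIL had the lowest IC50 of all lines and HPB-ALL the highest. The BMF slope was 0.32 log2 units per 10 nM (SE 0.31, n = 13) and did not pass (limma, adjusted p = 0.998). It was 1.09 in BCP-ALL and 0.14 in T-ALL, a difference between lineages of -0.95 (SE 0.66, adjusted p = 0.398) that did not pass either.

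BMF did not differ detectably between lineages. Its lowest, median and highest values were 4.68, 4.97 and 7.67 in BCP-ALL and 4.28, 4.67 and 6.51 in T-ALL, and the ranges overlapped. T-ALL minus BCP-ALL was -0.73 (SE 0.60, adjusted p = 0.462), and 0.20 without Nalm16 and Nalm30.

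The genes whose pattern over the 13 lines was most like that of BMF were EGR1 (an immediate-early transcription factor, Pearson r = 0.950), FURIN (a proprotein-cleaving protease, 0.941), ALS2CL (0.937), PSTPIP2 (0.935) and SCGB3A1 (0.933). All 5 had their highest values in Nalm16 and Nalm30. EGR1 was 9.30 in Nalm30, 8.88 in Nalm16, 7.45 in ALL-SIL and 6.56 in RS4;11, but 6.12 in HPB-ALL. SCGB3A1 was 9.14 in Nalm30, 8.66 in Nalm16 and 8.07 in ALL-SIL, and between 4.0 and 5.03 in the other 10 lines. The most opposite genes were LINC01963 (-0.945), ZNF480 (-0.944), DYNC2LI1 (-0.941), DPM1 (-0.926) and PITPNA-AS1 (-0.924). DYNC2LI1, a subunit of the dynein motor of cilia, was at the floor of 4.0 in Nalm16 and Nalm30, 4.77 in ALL-SIL and 5.21 in HPB-ALL, and 6.38 to 7.47 elsewhere. These coefficients describe the same split of the lines and are carried in part by the similar Nalm pair. Over the other 11 lines the 5 positive ones lay between 0.780 and 0.835 and the 5 negative ones between -0.857 and -0.767.

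Between lineages, BCL2 was the member that differed. BCL2, the founding antiapoptotic gene, ran from 7.84 through a median of 9.63 to 10.44 in BCP-ALL. In T-ALL it ran from 7.15 through 7.60 to 8.96. Of the BCP-ALL lines Nalm6, at 7.84, and 697, at 8.93, lay among the T-ALL values, and of the T-ALL lines ALL-SIL, at 8.96, lay among the BCP-ALL values, while the next T-ALL line was TALL-1 at 7.68. The mean was 9.43 ± 0.93 (SD, n = 6) in BCP-ALL and 7.69 ± 0.59 (SD, n = 7) in T-ALL. BCL2 was lower in T-ALL by 1.74 log2 units, 3.34-fold (SE 0.40, limma, adjusted p = 0.0166). This made 1 of 9 members called, beside 7.63% of the 12560 genes tested (958, of which 497 were higher and 461 lower in T-ALL), a count near the background.

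All 4 BCL2 probe sets gave the same direction. Their differences ran from -1.74 (203685_at, used) to -0.25 (207004_at), and 3 of the 4 passed in a fit over 22729 probe sets, of which 7.22% passed. Of those 3, 207005_s_at was near the floor in every T-ALL line (4.41 to 4.84). The probe set that did not pass, 207004_at, was near the floor in 6 lines and followed the one used at r = 0.22. The BCL2 call did not rest on any single line, since the adjusted p was 0.00191 to 0.0402 with each line left out in turn. Without both Nalm16 and Nalm30 the difference was -1.64 but no longer passed (adjusted p = 0.0746).

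**Figure D3:**
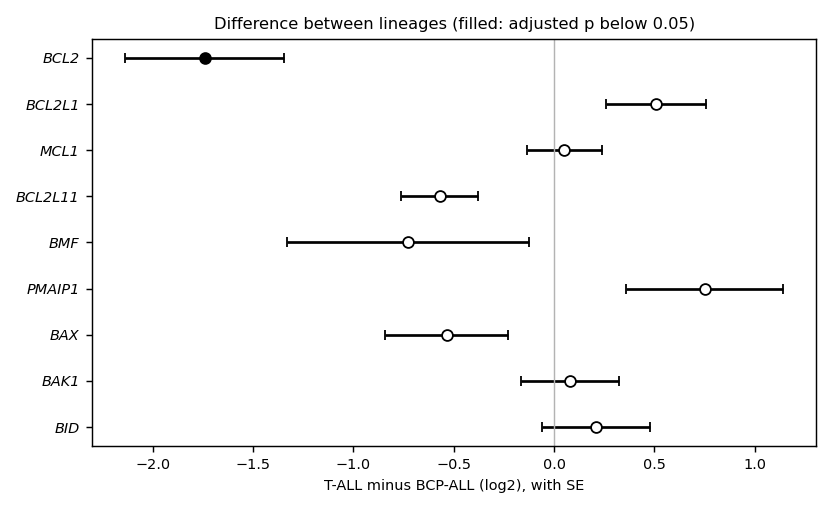
Points show T-ALL minus BCP-ALL on the log2 scale for the 9 members (n = 7 and 6 lines) and bars the SE of the limma fit. BCL2, at -1.74, is the filled point and the one member whose adjusted p was below 0.05, and BCL2L11 at -0.57 comes next by p.

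The other antiapoptotic members did not pass. BCL2L1 ranged from 7.29 through a median of 7.85 to 8.50 in BCP-ALL and from 7.44 through 8.45 to 8.80 in T-ALL, with overlapping ranges. The difference was 0.51 (SE 0.25, adjusted p = 0.215), and 3 of its 4 probe sets had a higher mean in T-ALL. Within T-ALL, HPB-ALL was the lowest line for BCL2L1 and ALL-SIL the highest. MCL1 ranged from 8.98 through 9.68 to 10.03 in BCP-ALL and from 9.19 through 9.62 to 9.99 in T-ALL. Its difference of 0.052 (SE 0.19, adjusted p = 0.894) changed sign under quantile normalization and without the Nalm pair. Nalm16 had the lowest MCL1 of all lines.

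Among the BH3-only members, BCL2L11 was the nearest to the threshold. It ranged from 7.85 (Nalm30) through a median of 8.41 to 8.84 (Nalm6) in BCP-ALL and from 7.42 (HPB-ALL) through 7.85 to 8.17 (CCRF-CEM) in T-ALL, with overlapping ranges. T-ALL minus BCP-ALL was -0.57 (SE 0.19, adjusted p = 0.0897), so the difference did not pass. It passed with quantile normalization (-0.70, adjusted p = 0.0390) and without Nalm16 and Nalm30 (-0.75, adjusted p = 0.0415). All 7 probe sets of the gene had a lower mean in T-ALL, with differences from -0.91 to -0.16, and 6 of them were tested and did not pass.

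The BCL2L11 probe sets disagreed in HPB-ALL. On the probe set used (1553096_s_at) HPB-ALL was 7.42, just below ALL-SIL at 7.54. On 225606_at it was 4.47, 2.33 below the next lowest line, and on 1558143_a_at it was 4.11, 2.52 below the next lowest line. On 1555372_at and 222343_at HPB-ALL was also the lowest line, at 4.45 and 4.24, whereas on 1553088_a_at it was 6.82 within a range of 6.52 to 7.63. The probe set 1553088_a_at followed the one used at r = 0.037 over the 13 lines, and the other 5 at 0.640 to 0.883. BCL2L11 makes many transcript forms that keep or drop exons and differ in their ends, and which form each probe set reads was not tested.

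**Figure D4:**
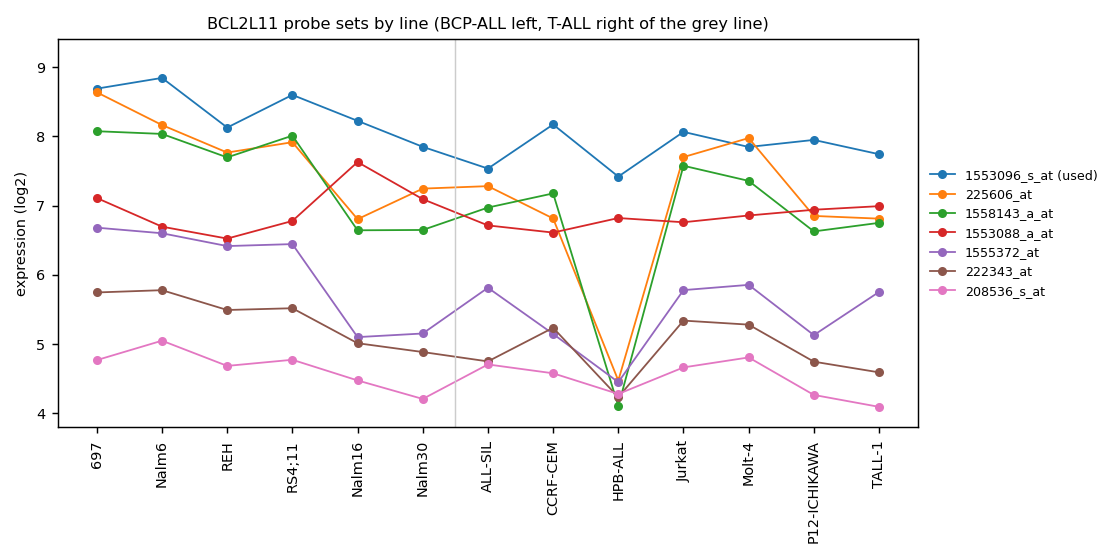
Lines join the log2 values of each of the 7 BCL2L11 probe sets over the 13 cell lines (an aid to the eye, since the lines have no order). HPB-ALL drops to 4.47 and 4.11 on 2 probe sets but lies at 7.42 on the one used, and 1553088_a_at runs its own course.

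PMAIP1, whose protein NOXA neutralizes MCL1 in particular, ranged from 7.92 through a median of 9.13 to 9.92 in BCP-ALL and from 9.08 through 9.46 to 10.94 in T-ALL. Nalm30 and Nalm16 had the lowest values, 7.92 and 8.20, and HPB-ALL and ALL-SIL the highest, 10.94 and 10.36, so the 4 lines with high BMF held both ends of the PMAIP1 range. The lineage difference was 0.75 (SE 0.39, adjusted p = 0.244). BID, which caspase-8 cleaves to link death receptors to mitochondria, ranged from 8.63 through 9.22 to 9.81 in BCP-ALL and from 8.86 through 9.32 to 10.19 (Jurkat) in T-ALL. Its difference was 0.21 (SE 0.27, adjusted p = 0.657).

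The pore formers did not pass either. BAX ranged from 6.78 through 7.21 to 8.94 in BCP-ALL and from 6.59 through 6.96 to 7.36 in T-ALL. RS4;11, at 8.94, stood 1.15 log2 units above the next line, REH, and was the highest line on both BAX probe sets. The BAX difference was -0.54 (SE 0.31, adjusted p = 0.287). BAK1 ranged from 6.54 through 7.10 to 7.82 in BCP-ALL and from 6.76 through 7.24 to 7.92 in T-ALL, with a difference of 0.079 (SE 0.24, adjusted p = 0.876) that changed sign under quantile normalization. The median difference over the 9 members was 0.052, beside 0.034 over all genes tested.

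Against the IC50 at 48 hours, 0 of the 8 members other than BMF passed in limma, and 0 reached an unadjusted p under 0.05. Of all genes tested 0.541% passed and 26.3% had an unadjusted p under 0.05, so a low count in the family says little. The slopes ran from -0.052 log2 units per 10 nM for BCL2L11 (SE 0.036, adjusted p = 0.378) to 0.12 for BCL2 (SE 0.092, adjusted p = 0.440), with BID at 0.056 (SE 0.040, adjusted p = 0.388). BCL2L11 had negative slopes in both lineages, -0.067 in BCP-ALL and -0.072 in T-ALL. In BCP-ALL the sign rested on Nalm16 and Nalm30, since over the other 4 lines the slope was 0.061. BCL2L11 also had a positive slope, 0.094, over the 9 lines with the lowest IC50. Of its 6 tested probe sets, 5 had a negative slope over the 13 lines and 1 a positive one. Over the other 11 lines without the Nalm pair, the BCL2 slope was 0.012 and that of BCL2L11 was -0.099.

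PMAIP1 was the member whose slope at 48 hours differed between lineages. It increased by 0.22 log2 units per 10 nM over the 7 T-ALL lines (r = 0.96, rho = 0.89) and decreased by 0.18 over the 6 BCP-ALL lines (r = -0.81, rho = -0.60). The difference of 0.39 (SE 0.070) passed (limma interaction, adjusted p = 0.00782). This was 1 of 8 members tested, beside 10.9% of all genes, so the count is near the background. The second probe set, 204286_s_at, gave slopes of 0.24 in T-ALL and -0.26 in BCP-ALL.

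The opposite direction in BCP-ALL came from Nalm16 and Nalm30. Over the other 4 BCP-ALL lines the PMAIP1 slope was 0.21 on the probe set used, near that in T-ALL. On 204286_s_at it was 0.14, against 0.24 in T-ALL. The IC50 ranks of these 4 lines are 4, 5, 6 and 9 of 13, so RS4;11 at rank 9 weighs most in both slopes. On the probe set used the difference between lineages without the pair was 0.012 (limma interaction, adjusted p = 0.999). Over those 11 lines together the slope was 0.21 (r = 0.89, rho = 0.79) and did not pass (adjusted p = 0.127). With HPB-ALL alone left out the difference was 0.37 and no longer passed (adjusted p = 0.0674). MCL1, the partner that NOXA binds, had slopes of 0.056 in T-ALL and -0.078 in BCP-ALL, a difference of 0.13 (SE 0.047, adjusted p = 0.0902) that did not pass.

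**Figure D5:**
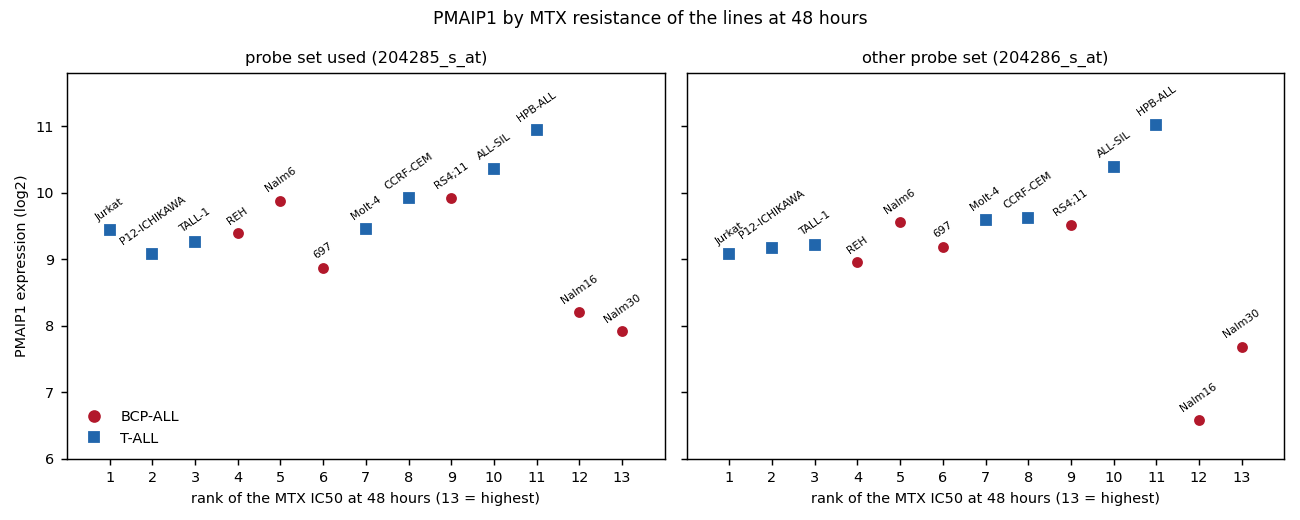
PMAIP1 log2 expression is plotted against the rank of the MTX IC50 at 48 hours for the probe set used (left) and the other probe set (right), with circles for BCP-ALL and squares for T-ALL. Of the 4 lines with the highest IC50, HPB-ALL (10.94) and ALL-SIL (10.36) are the highest on the left and Nalm16 (8.20) and Nalm30 (7.92) the lowest.

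Against the IC50 at 96 hours, 0 of 9 members passed in limma and 0 reached an unadjusted p under 0.05, beside 0% and 2.9% of all genes tested. The slope with the smallest p was that of BID, 0.25 log2 units per 10 nM (SE 0.12, adjusted p = 0.998), with 0.43 in BCP-ALL and 0.17 in T-ALL. On the other BID probe sets the slope over all lines was smaller, 0.11 (204493_at) and 0.025 (227143_s_at). BCL2L1 was -0.20 (SE 0.13, adjusted p = 0.998) and BCL2 -0.24 (SE 0.30, adjusted p = 0.998). Within the 7 T-ALL lines BCL2L1 was highest in ALL-SIL (8.80), the line with the lowest IC50, and lowest in HPB-ALL (7.44), the line with the highest (r = -0.82, rho = -0.89). For none of the 9 members did this slope differ between lineages past the threshold, beside 0.00796% of all genes.

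Members were compared with each other over the 13 lines as a description. Of 36 pairs 16 had a positive and 20 a negative Pearson r, with a median of -0.028. The highest were BCL2L1 with BAK1 (0.60), MCL1 with PMAIP1 (0.60), BCL2 with BAX (0.59) and BAK1 with BID (0.51). The lowest was BCL2L1 with BCL2L11 (-0.56). Some of these values depended on Nalm16 and Nalm30: over the other 11 lines MCL1 with PMAIP1 was 0.30, and BMF with PMAIP1 was 0.79, from -0.33 in all 13. The 0.79 leans on ALL-SIL and HPB-ALL, the only lines of those 11 with high BMF, which also had the highest PMAIP1. With the lineage means removed from all 13 lines, BCL2L11 with BMF reached -0.71, from -0.27 before. Without Nalm16 and Nalm30, and with the lineage means kept, BCL2L11 with BMF was -0.43. Of the lines with high BMF, HPB-ALL (7.42) and ALL-SIL (7.54) had the lowest BCL2L11 of all lines. Nalm30 (7.85) had the lowest BCL2L11 in BCP-ALL, whereas Nalm16 was at 8.22. TALL-1 (7.74) and Molt-4 (7.85) were low in BCL2L11 with BMF near the floor. All these pairs share the same 13 arrays and the pairs of similar lines.

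Of the other apoptosis genes, 72 were looked for, 65 had a probe set of their own and 56 passed the filter on low values. Between lineages 4 of the 56 passed, 1 higher and 3 lower in T-ALL, a share near the 7.63% of all genes tested. FOXO1, a transcription factor that can switch on BH3-only genes, was 7.55 to 9.55 in BCP-ALL and 4.01 to 4.81 in T-ALL, so the groups did not overlap, as in 3.69% of genes tested. It was lower in T-ALL by 4.01 log2 units (SE 0.29, adjusted p = 9.15e-07), a size limited by the floor, near which all 7 T-ALL lines lay. CDKN1A, which encodes the cell cycle inhibitor p21, was 8.13 to 10.24 in BCP-ALL and 4.0 to 6.12 in T-ALL and lower in T-ALL by 4.35 (SE 0.40, adjusted p = 9.67e-06). Its size is limited by the floor too, near which 5 of the 7 T-ALL lines lay.

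BCL2L2 (BCL-W), another antiapoptotic member of the family, had the same direction as BCL2. It was 5.17 to 6.62 in BCP-ALL and 4.08 to 5.24 in T-ALL, lower in T-ALL by 1.51 (SE 0.27, adjusted p = 0.00336), again with 5 of the 7 T-ALL lines near the floor. FAS, the death receptor, was 4.05 to 7.05 in BCP-ALL and 6.80 to 8.02 in T-ALL, higher in T-ALL by 2.19 (SE 0.41, adjusted p = 0.00534), with RS4;11 the one BCP-ALL line among the T-ALL values and 3 BCP-ALL lines near the floor. The antiapoptotic genes BCL2A1 and BCL2L10 did not pass the filter and did not exceed 5.09 and 5.00 in any line. HRK, a BH3-only gene, was 10.52 in Nalm6 and at most 4.78 elsewhere.

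By list, the lineage calls were 1 of 1 other antiapoptotic genes tested, 0 of 2 other BH3-only genes, 0 of 3 other BCL2-like genes and 0 of 9 apoptosome and caspase genes. Further calls were 0 of 5 inhibitors of apoptosis, 1 of 9 death receptor genes, 1 of 13 regulators and partners of the members and 1 of 14 genes listed as p53 targets.

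None of the 56 passed for the IC50 at 48 hours in limma, and 5 positive and 12 negative slopes had an unadjusted p under 0.05, beside 974 positive and 2334 negative ones (26.3%) among all 12560 genes, so the count and its lean are near the background. The 4 with the smallest p in limma were ZMAT3 (-0.20 log2 units per 10 nM, adjusted p = 0.0588) and XPC (-0.16, adjusted p = 0.0588), both listed as p53 targets, XIAP, an inhibitor of caspases (-0.13, adjusted p = 0.0615), and CYCS, cytochrome c (-0.19, adjusted p = 0.0638). At 96 hours none passed and 1 had an unadjusted p under 0.05 (2.9% of all genes), BIRC6 (-0.45, SE 0.17, adjusted p = 0.998), followed by APAF1 (-0.28), CFLAR (0.17) and BAD (0.20), each with an adjusted p of 0.998.

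The slope at 48 hours differed between lineages for 8 of the 56 genes, all with the higher slope in T-ALL: BIRC2, MDM4, XIAP, CYCS, MDM2, NR3C1, RRM2B and FBXW7. Of all genes tested 10.9% passed, 978 with the higher slope in T-ALL and 397 with the lower, so the count is near the background. In each of them the T-ALL slope lay between -0.039 and 0.083 log2 units per 10 nM and the BCP-ALL slope between -0.72 (NR3C1, the glucocorticoid receptor) and -0.18 (MDM4). Nalm16 and Nalm30 were at the floor of 4.0 for NR3C1, beside 8.20 or more in each of the other 11 lines. BIRC2, which encodes the inhibitor of apoptosis cIAP1, was 5.69 in Nalm16 and 6.03 in Nalm30 and at least 8.01 in the other lines. Without this pair 0 of the 8 differences passed in limma, but BCP-ALL then has 4 lines, none with an IC50 rank above 9. A call can be lost there through fewer lines and a shorter IC50 range alone, which was not tested. The differences of NR3C1 and RRM2B turned negative (-0.77 and -0.068), while those of XIAP (0.23), CYCS (0.45) and FBXW7 (0.81) were larger than in all lines. With 1 line left out each of the 8 kept its direction, but the call of BIRC2 alone held in all 13 fits. Those of MDM4 and XIAP held in 12 and were lost without HPB-ALL (adjusted p = 0.154 and 0.106). Those of CYCS and MDM2 held in 9 and were lost without Nalm16, HPB-ALL, P12-ICHIKAWA or TALL-1 (adjusted p up to 0.155 and 0.160). That of NR3C1 held in 7 and was lost without Nalm6, Nalm16, Nalm30, ALL-SIL, HPB-ALL or Jurkat (up to 0.173), and that of RRM2B held in 7 and was lost without 697, Nalm16, ALL-SIL, Jurkat, P12-ICHIKAWA or TALL-1 (up to 0.104). That of FBXW7 held in 5 and was lost without REH, Nalm16 or any T-ALL line other than Molt-4 (up to 0.195). At 96 hours none of the 56 differed past the threshold, and the smallest p were those of CYCS (1.12, adjusted p = 0.114), CDKN1A (1.03, adjusted p = 0.129), BCL2L15 (-0.54, adjusted p = 0.130) and FOXO1 (0.79, adjusted p = 0.132).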

How the data were processed

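Each of 13 ALL lines, grouped by the labels as BCP-ALL (6) or T-ALL (7), was hybridized once, untreated, to an HG-U133 Plus 2.0 array (Affymetrix). The authors deposited iterPLIER+16 values on a log2 scale from Affymetrix Expression Console, and neither its version nor the scaling between arrays is given in the sources used here. An added 16 sets the floor of 4 and shrinks differences of dim probe sets. The labels and the methods differ on culture and RNA extraction.

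Of 42450 probe sets, 38125 were annotated to 1 symbol, 1742 to several and 2583 to none, and only the first were used. A gene took its probe set with the highest mean, and 12560 of 18568 genes, above the array median in at least 3 lines, were tested with limma 3.58.1 in R 4.3.3 (lmFit, eBayes, Benjamini-Hochberg over all genes, threshold 0.05) for lineage, for slopes on the IC50 at 48 and 96 hours and for the lineage by IC50 interaction. The IC50 values were read from the study's supplement and have no error here. Other steps used Python 3.11.15, numpy 2.4.6, pandas 2.3.3 and matplotlib 3.10.9, and the fits were tested on simulated data. Arrays have no depth, and precision is limited by how many lines there are.

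The members and gene lists were chosen with earlier results of these data known. Named were all members, other pathway genes that passed or had the 4 smallest p in a comparison, and the 5 genes most like and the 5 least like BMF. BCL2A1, BCL2L10 and HRK were named after their values were seen. Alternatives covered the probe set, normalization, filter, variance model, lines left out, lineage as a covariate and log2 IC50.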

Additional observations from a re-analysis of the deposited data

Results flagged for a closer look

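Among 60 groups of values (the 30 member probe sets in each lineage), 4 held a line far from the rest, where chance flags about 5%, or 3 groups. BCL2 was 8.96 in ALL-SIL, against 7.68 in the nearest T-ALL line. On 2 BCL2L11 probe sets HPB-ALL was far below the other T-ALL lines, at 4.47 against 6.81 on 225606_at and 4.11 against 6.63 on 1558143_a_at. On MCL1 probe set 214057_at Nalm16 was 5.22, against 6.01 in the nearest BCP-ALL line.

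The slope on the IC50 at 48 hours was higher in T-ALL than in BCP-ALL past the threshold of the limma interaction for PMAIP1 (by 0.39 log2 units per 10 nM) and for 8 pathway genes, BIRC2 (0.41), MDM4 (0.24), XIAP (0.18), CYCS (0.23), MDM2 (0.30), NR3C1 (0.80), RRM2B (0.31) and FBXW7 (0.44). Without Nalm16 and Nalm30 the differences of PMAIP1, BIRC2, MDM4, XIAP, CYCS, MDM2 and FBXW7 were 0.012, 0.29, 0.15, 0.23, 0.45, 0.12 and 0.81. Those of NR3C1 and RRM2B were -0.77 and -0.068, and 0 of the 9 passed in limma. That fit has only 4 BCP-ALL lines over a shorter IC50 range, so a lost call there says little.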

How the results depend on the processing

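No paired analysis was possible because the labels give no replicate numbers that tie a BCP-ALL line to a T-ALL line. Averaging P12-ICHIKAWA and TALL-1 while leaving out Nalm16 and Nalm30, called the joint setting here, was chosen after seeing the data. Causes of these shifts were not tested.

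BCL2 stayed lower in T-ALL in each setting (-2.06 to -1.54 with 1 line left out) and lost its call without the Nalm pair (-1.64) and in the joint setting (-1.63). BCL2L11 gained a call with quantile normalization (-0.70) and without the pair (-0.75). Lineage differences of members that were not called changed sign for MCL1 with the most variable probe set (-0.15), the mean of all probe sets (-0.039), quantile normalization (-0.047), without the pair (-0.15) and in the joint setting (-0.15), for BMF without the pair (0.20) and in the joint setting (0.32), and for BAK1 with quantile normalization (-0.041). With 1 line left out MCL1 ran from -0.071 to 0.14 and BAK1 from -0.040 to 0.22.

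The genes called between lineages were 610 with P12-ICHIKAWA and TALL-1 averaged, 458 in the joint setting and 609 (without TALL-1) to 1223 (without REH) with 1 line left out. Those called for the IC50 at 48 hours, 68 in all lines, were 410 with the most variable probe set, 217 with the mean of all probe sets, 221 with quantile normalization, 117 with a mean-variance trend, 4 without the pair, 19 with P12-ICHIKAWA and TALL-1 averaged, 241 with lineage as a covariate, 5 with log2 IC50 and 1 in the joint setting. With 1 line left out they ran from 7 (without Nalm30) to 2473 (without HPB-ALL), outside 1.5 times the count for each of the 13 lines, so that background share is not stable. For the IC50 at 96 hours 0 were called by limma in each setting. Lineage interactions at 48 hours were 53 without the pair, 27 in the joint setting and 249 (without HPB-ALL) to 1508 (without Nalm30) with 1 line left out. At 96 hours they were 12 with no filter, 5 without the pair, 4 in the joint setting, 0 with log2 IC50 and 1 to 2196 (without Nalm30) with 1 line left out.

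The BMF slope at 48 hours was 0.26 without the pair and 0.25 in the joint setting. Slopes of members at 48 hours that were not called changed sign for BCL2 in the joint setting (-0.010), BCL2L1 with quantile normalization (0.021), centred arrays (0.015), P12-ICHIKAWA and TALL-1 averaged (0.0078) and lineage as a covariate (0.0071), MCL1 without the pair (0.037) and in the joint setting (0.037), PMAIP1 without the pair (0.21) and in the joint setting (0.21) and BAX with quantile normalization (0.0094). With 1 line left out they ran from -0.035 to 0.021 for BCL2L1, from -0.044 to 0.0032 for MCL1 and from -0.11 to 0.053 for PMAIP1. At 96 hours the sign changed for MCL1 without the pair (0.0024), BCL2L11 with log2 IC50 (0.0017) and PMAIP1 with the most variable probe set (-0.084), the mean of all probe sets (-0.013) and log2 IC50 (-0.061). With 1 line left out the range was -0.19 to 0.011 for MCL1, -0.14 to 0.072 for BCL2L11, -0.29 to 0.23 for PMAIP1 and -0.14 to 0.031 for BAX.

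The PMAIP1 interaction at 48 hours was 0.012 without the pair and 0.0060 in the joint setting, no longer called. Both settings keep only 4 BCP-ALL lines over a shorter IC50 range. That of NR3C1 turned to -0.77 without the pair and -0.73 in the joint setting, and that of RRM2B to -0.068 and -0.077. Calls of other interactions at 48 hours were also lost for CYCS (0.14) and NR3C1 (0.67) with the mean of all probe sets, for FBXW7 (0.39) and RRM2B (0.28) with quantile normalization, for FBXW7 (0.44) with no filter, and for CYCS (0.23), MDM2 (0.29), RRM2B (0.30) and FBXW7 (0.44) with P12-ICHIKAWA and TALL-1 averaged. That of NR3C1 was lost with log2 IC50.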
